A study of Mus musculus with 4 samples.

Results

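The genes described here are 10 components of the circadian clock, Arntl, Clock, Per1, Per2, Per3, Cry1, Nr1d1, Nr1d2, Dbp and Tef, listed by symbol among the 32285 genes of a single-cell RNA-Seq dataset of mouse kidney. Each symbol occurred once, so all 10 were found. The rule that lists them names no measured value, but the members were chosen with earlier results of these data known. The dataset holds 4 libraries from kidneys of male C3H mice, 18 weeks of age at harvest, and 1 library stands for each condition. WT-ND came from wild-type mice on a normal diet (ND), and WT-HFD from wild-type mice on a high-fat diet (HFD) for 8 weeks. SP-ND and SP-HFD came from mice on the same diets that carry the Sweet Pee (SP) missense mutation of Slc5a2, which encodes the glucose transporter SGLT2. The number of mice behind each library and the time of day of each harvest are not given in the sources used here. Diet, harvest time and library preparation therefore cannot be told apart, and neither can genotype and the libraries that stand for it.

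The clock is a feedback loop that runs in almost every cell of the body with a period of about a day. CLOCK and its partner BMAL1, the product of Arntl, activate Per1, Per2, Per3, Cry1, Nr1d1, Nr1d2, Dbp and Tef, and PER and CRY proteins accumulate and repress that activation. The nuclear receptors REV-ERBα (Nr1d1) and REV-ERBβ (Nr1d2) repress Arntl, and the transcription factors DBP and TEF carry the rhythm to output genes. In mouse kidney, as in liver, Dbp, Tef, Nr1d1 and Nr1d2 RNA peaks in the light phase, Per RNA follows, and Arntl RNA peaks at about the opposite time. A contrast between the 2 arms of the loop can therefore move with clock phase, but a single harvest cannot separate phase from amplitude. The question asked of the libraries was whether they sat at the same point of this loop in every cell class.

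Letters that match known binding motifs of the loop's factors were searched for in the start regions of the members. No binding was measured in these data. RefSeq (GRCm38.p6) gave 14 windows of 300 bases, 250 before and 50 after a transcription start, for 9 of the 10 genes. These were searched on both strands for the E-box CACGTG, bound by CLOCK and BMAL1, the D-box TTATGTAA, bound by DBP and TEF, and the hexamer AGGTCA, the core of sites for REV-ERB and ROR receptors. The E-box was in windows of Cry1, Per1 and Tef, the D-box in Per3 only, and AGGTCA in windows of Arntl, Clock, Nr1d2 and Per1. Over all 32851 windows of the same length, 7.15% held the E-box, 0.938% the D-box and 16.3% AGGTCA. These shares are per window, while the members are named per gene and some have several windows, so the 2 are not alike. Windows of Dbp and Nr1d1 held none of the 3 motifs. A match is a description of these letters in the reference sequence, which is not that of the C3H strain. One stretch each with an E-box of Cry1, Per1 and Tef, with the 2 D-boxes of Per3 and with AGGTCA of Nr1d2 is printed, to show what such letters look like in the members that hold them. They run 5′ to 3′ on the strand of the gene, with only the motif named for each in capitals. The Per1 stretch also holds TGACCT, which is AGGTCA on the other strand, in small letters.
Cry1, chr10:85185069-85185154, minus strand: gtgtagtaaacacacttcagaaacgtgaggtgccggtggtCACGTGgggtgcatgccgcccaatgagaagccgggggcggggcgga
Per1, chr11:69098743-69098828, plus strand: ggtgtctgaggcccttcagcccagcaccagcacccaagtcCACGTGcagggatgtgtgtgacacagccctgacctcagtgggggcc
Tef, chr15:81802506-81802591, plus strand: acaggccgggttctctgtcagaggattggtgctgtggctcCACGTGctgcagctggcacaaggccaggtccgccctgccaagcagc
Per3, chr4:151044776-151044910, minus strand: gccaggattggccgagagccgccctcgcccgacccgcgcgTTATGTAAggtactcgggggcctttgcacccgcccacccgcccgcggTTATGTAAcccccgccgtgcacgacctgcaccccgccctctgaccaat
Nr1d2, chr14:18239138-18239223, minus strand: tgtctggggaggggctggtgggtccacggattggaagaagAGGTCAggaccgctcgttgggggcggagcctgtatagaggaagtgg

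The deposited values are numbers of unique molecular identifiers (UMIs, tags that mark single RNA molecules) per gene and barcode. After the limits given under processing, 32280 cells were kept (6389 to 9924 per library, with 43963912 to 61817145 UMIs). Cells were clustered, clusters were named from marker genes, and 14 classes had at least 50 cells in each library. They resemble proximal tubule, thin limb, thick ascending limb, distal convoluted tubule, connecting tubule, principal cells, type A and type B intercalated cells, podocytes, endothelial cells, mural cells, macrophages or dendritic cells, T or NK cells, and B cells. Class names below stand for cells like these. In each of the 14 every marker was higher in the class than in all other cells together, but the same markers had named the clusters. This check pooled the 4 libraries and lends the names no separate support. A level is the UMIs of a gene pooled over the cells of a class and library, as counts per 1000000 UMIs of that class and library (CPM). Intervals in brackets are 95% intervals that cover counting error only. Since each condition has a single library, no spread between replicates could be had and no test was made, so "higher" and "lower" compare libraries. Sets of 4 values with no names beside them are given in the library order WT-ND, WT-HFD, SP-ND, SP-HFD.

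The 4 libraries were not all of the same kind. Clustered without integration, 2692 cells of WT-HFD made up most of a cluster of 2725 cells that took no class name and was led by Car3, Ccl28 and Sycn, and integration placed part of them within named classes. Of the WT-HFD cells in the type B intercalated class, 79.1% were in an unnamed cluster when libraries were clustered without integration. This share was 44.3% in the connecting tubule, 36.1% in B cells, 31.9% in the thin limb, 27.6% in the proximal tubule and 17.6% in the thick ascending limb. Counts and medians were therefore recomputed for cells that took the same class in both clusterings (concordant cells), which leaves 12 classes and no type B intercalated or B cells. Single values are given for concordant cells where they differ in a way that bears on the result. Among the 12 classes left, principal cells lose the most. Their concordant cells were 78 of 543 in WT-ND, 111 of 438 in WT-HFD, 72 of 436 in SP-ND and 123 of 550 in SP-HFD. Only 3, 13, 0 and 0 principal cells were unnamed without integration, so most of the rest took another class name. Kcne1, Npy6r and Grem1, which led the larger principal cell cluster, were then among the leading genes of a cluster named connecting tubule. Values given below for concordant principal cells therefore describe mainly the smaller cluster, led by Aqp4, Elf5 and Btc, and not the whole class. Pairs of libraries shared 54 to 77 barcodes, at most 0.522% of a library. Slc5a2 in the proximal tubule was at 292 and 235 CPM in the wild-type ND and HFD libraries and at 41.2 and 84.4 CPM in SP-ND and SP-HFD, which follows the labels, although a missense change need not lower RNA.

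The arm contrast was taken as the log2 ratio of summed UMIs of Nr1d1, Nr1d2, Dbp, Tef and Per3 (day arm) to summed UMIs of Arntl, Clock and Cry1 (night arm). This ratio within a library needs no scaling between libraries. Clock supplied most night-arm UMIs, 660 of 760 in WT-ND and 244 of 251 in SP-HFD in the proximal tubule. The contrast is thus largely one of day-arm genes to Clock. In the proximal tubule the arm contrast was 2.07 in WT-ND and 1.602 in SP-ND, against 3.79 in WT-HFD and 3.35 in SP-HFD. In podocytes the values in the library order were 1.83, 3.65, 0.71 and 3.41, and in principal cells 1.18, 2.71, 0.28 and 3.64. Among concordant principal cells they were 1.68, 1.85, 0.03 and 2.81. WT-HFD was 0.17 (-0.55 to 0.89) above WT-ND there, beside 1.53 (1.17 to 1.89) in the whole class. The smaller cluster of the class, led by Aqp4, Elf5 and Btc, had values near the concordant ones, at 1.68, 1.80, 0.03 and 2.80. The larger, led by Kcne1, Npy6r and Grem1, was at 1.04, 3.04, 0.32 and 3.91. The concordant values thus describe mainly the smaller cluster and do not replace those of the class. Both HFD libraries lay above both ND libraries in 12 of 14 classes. The thin limb and T or NK cells were the exceptions.

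**Figure D1:**
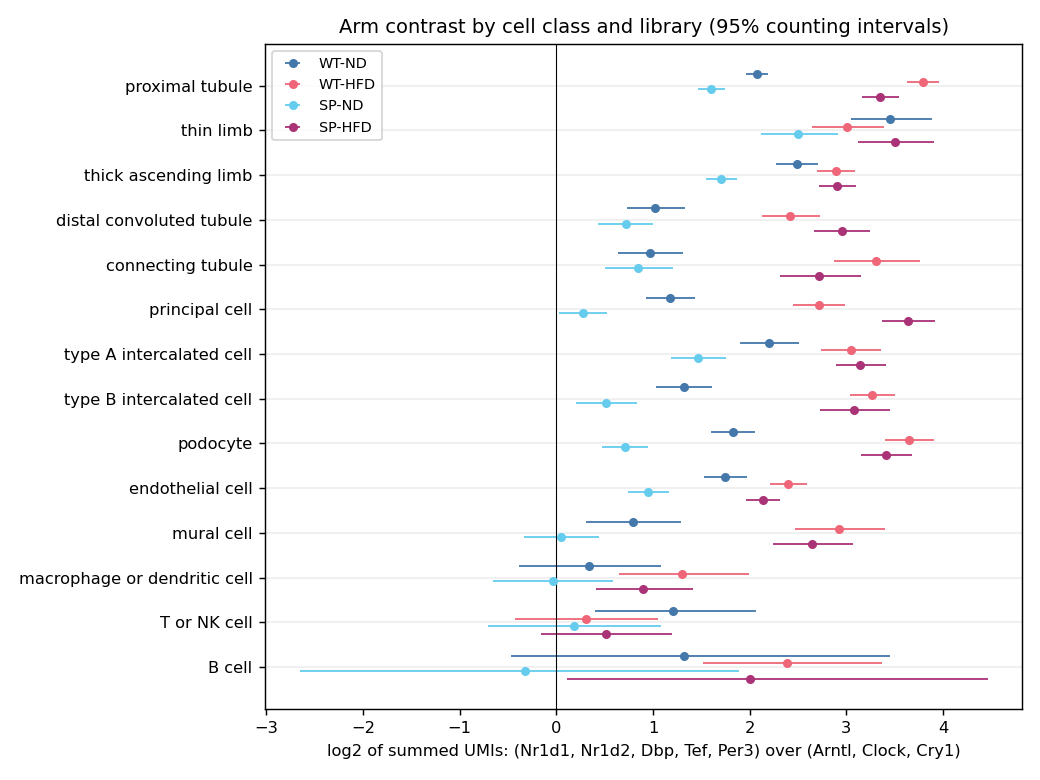
The horizontal axis is the arm contrast, the log2 ratio of summed UMIs of Nr1d1, Nr1d2, Dbp, Tef and Per3 to summed UMIs of Arntl, Clock and Cry1, with 95% counting intervals as bars, and each row is a cell class with 1 point per library. WT-HFD and SP-HFD lie to the right of WT-ND and SP-ND in 12 of 14 classes, and SP-ND is leftmost in all 14.

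The difference between diets had a median over classes of 1.23 in wild-type mice (WT-HFD minus WT-ND, range -0.91 to 2.33) and of 1.81 in mutant mice (SP-HFD minus SP-ND, range 0.33 to 3.36). Its counting interval lay above 0 in 11 of 14 classes for WT and in 12 of 14 for SP, and below 0 in none. The lowest value of each range was in T or NK cells, where the intervals spanned 0, at -1.95 to 0.13 for WT and -0.72 to 1.37 for SP. In concordant cells the WT median was 0.89 and the SP median 1.71 over 12 classes, and both HFD libraries lay above both ND libraries in 10 of the 12. The largest differences were in the connecting tubule for WT, 2.33 (1.79 to 2.87), and in principal cells for SP, 3.36 (3.00 to 3.72). In concordant cells the connecting tubule was at 1.80 (1.12 to 2.48) for WT, below mural cells at 2.13 (1.48 to 2.78) and podocytes at 1.83 (1.50 to 2.17), and principal cells were at 2.78 (1.99 to 3.56) for SP. The smallest interval-bounded differences above 0 were in the thick ascending limb for WT, 0.40 (0.12 to 0.69), and in macrophages or dendritic cells for SP, 0.93 (0.17 to 1.69).

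The ND libraries also differed from each other in arm contrast. SP-ND had the lowest arm contrast in all 14 classes, and SP-ND minus WT-ND had a median of -0.79 (range -1.64 to -0.12) with an interval below 0 in 9 classes. The -1.64 was in B cells, with an interval of -4.17 to 0.89. B cells had 4 day-arm and 5 night-arm UMIs in SP-ND, and 10 and 4 in WT-ND, so their place in these orders rests on few UMIs. The HFD libraries were closer, with a median of -0.21 for SP-HFD minus WT-HFD and intervals above 0 in 2 classes and below 0 in 2. Those above were principal cells at 0.93 (0.55 to 1.30) and distal convoluted tubule at 0.53 (0.13 to 0.94). The proximal tubule was below, at -0.44 (-0.68 to -0.19), as were endothelial cells, at -0.26 (-0.52 to -0.0021), an interval that reached 0.0011 in concordant cells. The sign of the median between the HFD libraries depended on the setting. WT-HFD was the highest library in 8 classes, SP-HFD in 5 and WT-ND in 1. The 4 comparisons share libraries and are not independent.

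Single members showed where these contrasts came from. Pairs of a member and a class with at least 50 UMIs over both libraries numbered 82 of 140 for WT-HFD against WT-ND, of which 33 were at least 2-fold higher (40.2%) and 4 at least 2-fold lower. Over all genes, 2.9% of pairs were higher and 2.15% lower by that measure. For SP-HFD against SP-ND, 41 of 85 member pairs were higher (48.2%) and 4 lower, beside 1.39% and 1.31% over all genes. For SP-ND against WT-ND, 3 of 74 were higher and 7 lower, beside 0.715% and 1.3%. None of 89 passed 2-fold in either direction for SP-HFD against WT-HFD, beside 1.31% higher and 2.34% lower. A pair that passed the limit on UMIs through 1 library alone had to differ, so these shares describe the pairs measured and not all members. Counts of classes by library order, given below for single members, carry a like limit. The members were also chosen with earlier results of these data known, so their shares are not those of a list drawn up blind to the data. In concordant cells 21 of 66 pairs were higher for WT (31.8%), beside 1.56% over all genes in the same cells, and 33 of 74 for SP (44.6%), beside 1.41%. There 4 of the 66 were lower for WT (6.06%), beside 2.15%, and 3 of the 74 for SP (4.05%), beside 1.42%.

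**Figure D2:**
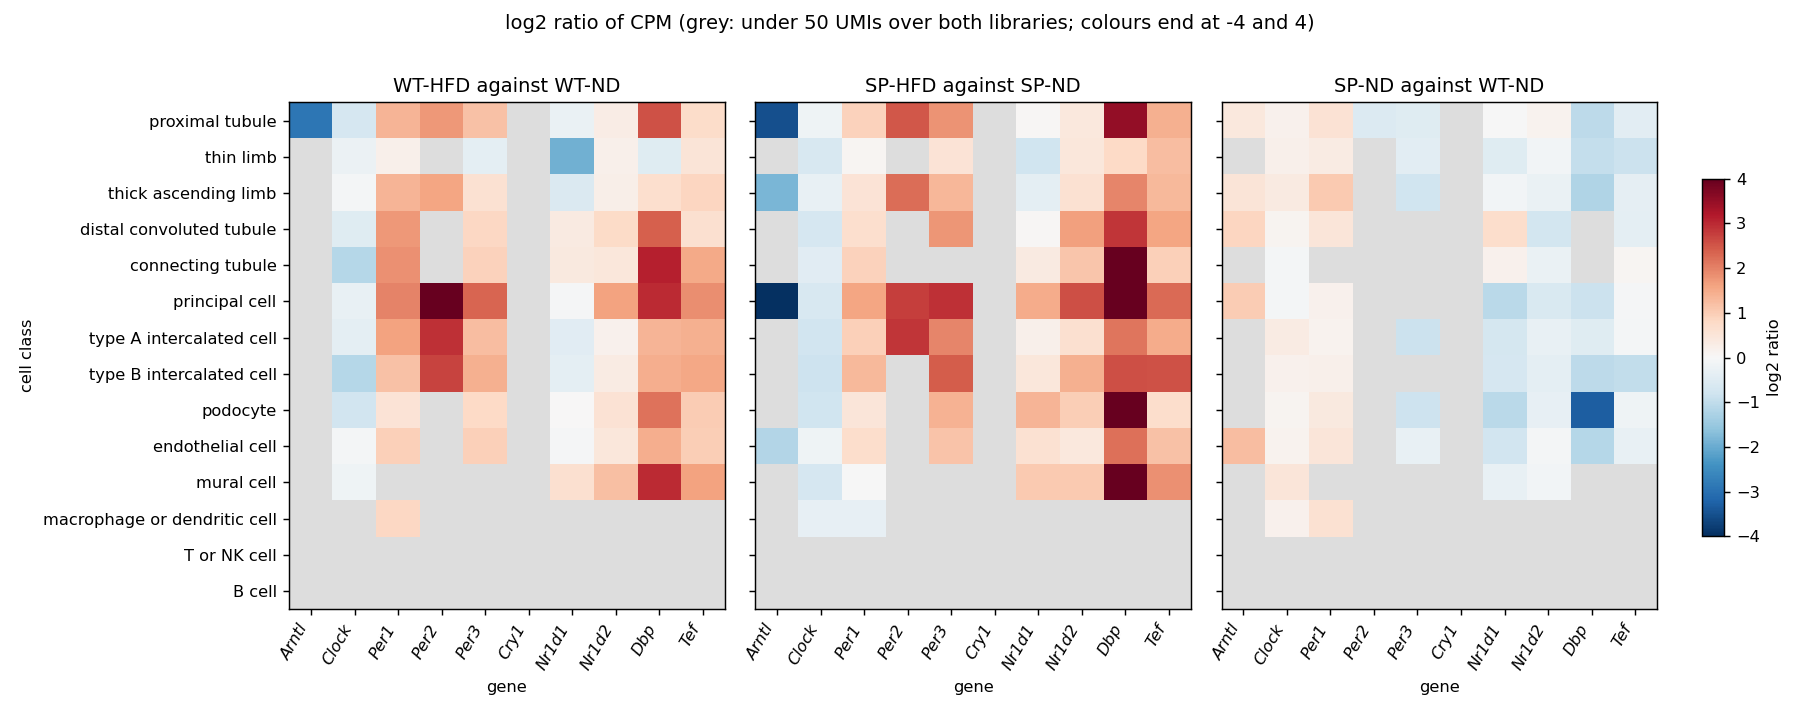
Each square is the log2 ratio of CPM of a clock gene (columns) in a cell class (rows) for WT-HFD against WT-ND, SP-HFD against SP-ND and SP-ND against WT-ND, on a colour scale that ends at -4 and 4, and grey squares had under 50 UMIs over both libraries. The Dbp, Tef, Per2 and Per3 columns are mostly higher and the Clock column lower with HFD in both genotypes, while the Nr1d1 column is mixed. Arntl is lower with HFD in the few classes that are not grey, 1 for WT and 4 for SP.

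Of the activators, Arntl was low with HFD in most classes. Proximal tubule cells had Arntl at 4.36 CPM in WT-ND (92 UMIs) and 5.82 in SP-ND (76 UMIs), against 0.592 in WT-HFD (9 UMIs) and 0.504 in SP-HFD (4 UMIs). The ND and HFD libraries did not overlap there, and the log2 ratio was -2.88 (-4.05 to -1.89) for WT and -3.53 (-5.44 to -2.11) for SP. In principal cells Arntl was at 8.99, 2.28, 18.2 and 0.328 CPM in the library order, the last from 1 UMI, and the SP log2 ratio was -5.79 (-11.1 to -3.26). In concordant principal cells Arntl was at 7.78, 3.25, 13.0 and 1.06 CPM, from 5, 3, 10 and 1 UMIs, a smaller difference. Over the 2 libraries of a diet comparison, Arntl reached 50 UMIs in only 1 class for WT, the proximal tubule, and in 4 for SP. It passed 50 UMIs over all 4 libraries in 6 classes. Both HFD libraries lay below both ND libraries in 5 of these, and in 3 of 4 in concordant cells. Some classes reached 50 UMIs mainly through the ND libraries, which by itself favours that order. The connecting tubule had 22, 3, 24 and 4 UMIs of Arntl. Over all kept cells, with no such limit but a mix of classes that differs between libraries, Arntl was at 5.57, 1.52, 8.73 and 1.96 CPM. Endothelial cells differed less, with 6.36, 5.24, 14.8 and 6.59 CPM in the library order. There SP-HFD was slightly above WT-ND, and SP-ND stood apart as the highest.

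Clock RNA, which oscillates little in most tissues, was lower with HFD by a smaller amount. Podocytes had Clock at 95.2 CPM in WT-ND and 104 in SP-ND, against 56.0 in WT-HFD and 59.6 in SP-HFD, with log2 ratios of -0.77 (-1.10 to -0.44) for WT and -0.80 (-1.13 to -0.47) for SP. Both HFD libraries lay below both ND libraries in 11 of 12 classes with at least 50 UMIs, and in 8 of 11 in concordant cells. The median log2 ratio over classes was -0.40 for WT and -0.65 for SP, and only 2 of 23 pairs passed 2-fold, both in WT. Over all kept cells Clock was at 41.0, 28.3, 47.4 and 35.1 CPM in the library order.

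The output factor Dbp was higher with HFD in all but 1 of the classes measured. Proximal tubule cells held Dbp at 16.4 CPM in WT-ND and 7.89 in SP-ND, against 95.2 in WT-HFD and 90.7 in SP-HFD, which is 5.81-fold higher with HFD in WT and 11.5-fold higher in SP. In podocytes Dbp was at 75.9 CPM in WT-ND (153 UMIs) and 7.69 in SP-ND (15 UMIs), against 342 in WT-HFD (806 UMIs) and 275 in SP-HFD (576 UMIs). The HFD libraries were both high there, and WT-ND was 9.87-fold above SP-ND. Mural cells had Dbp at 25.8, 206, 11.5 and 180 CPM, and connecting tubule cells at 7.03, 60.3, 2.66 and 55.7 CPM in the library order. Median log2 ratios of Dbp over 11 classes were 2.17 for WT and 2.86 for SP, and both HFD libraries lay above both ND libraries in 10 of the 11. In concordant cells the medians were 1.86 and 3.19, and this order held in 9 of 10 classes. Some classes reached 50 UMIs through the HFD libraries, which by itself favours this order. The connecting tubule had 14, 121, 5 and 90 UMIs of Dbp. Over all kept cells, with no such limit but a mix of classes that differs between libraries, Dbp was at 30.0, 95.3, 14.2 and 95.5 CPM.

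Tef, which encodes a factor of the same family as DBP, was higher with HFD in each class with at least 50 UMIs. Its level in the proximal tubule, the class with the highest Tef in each library, was 70.1 CPM in WT-ND and 52.1 in SP-ND, against 118 in WT-HFD and 138 in SP-HFD. Principal cells had Tef at 20.4, 73.6, 20.0 and 96.0 CPM in the library order, with log2 ratios of 1.85 (1.42 to 2.30) for WT and 2.27 (1.88 to 2.67) for SP. In concordant principal cells Tef was at 9.34, 28.2, 7.78 and 49.8 CPM. The HFD libraries lay above the ND libraries in 12 of 12 classes with at least 50 UMIs, and in 11 of 11 in concordant cells. The median log2 ratio was 1.00 for WT and 1.41 for SP, smaller than for Dbp.

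**Figure D3:**
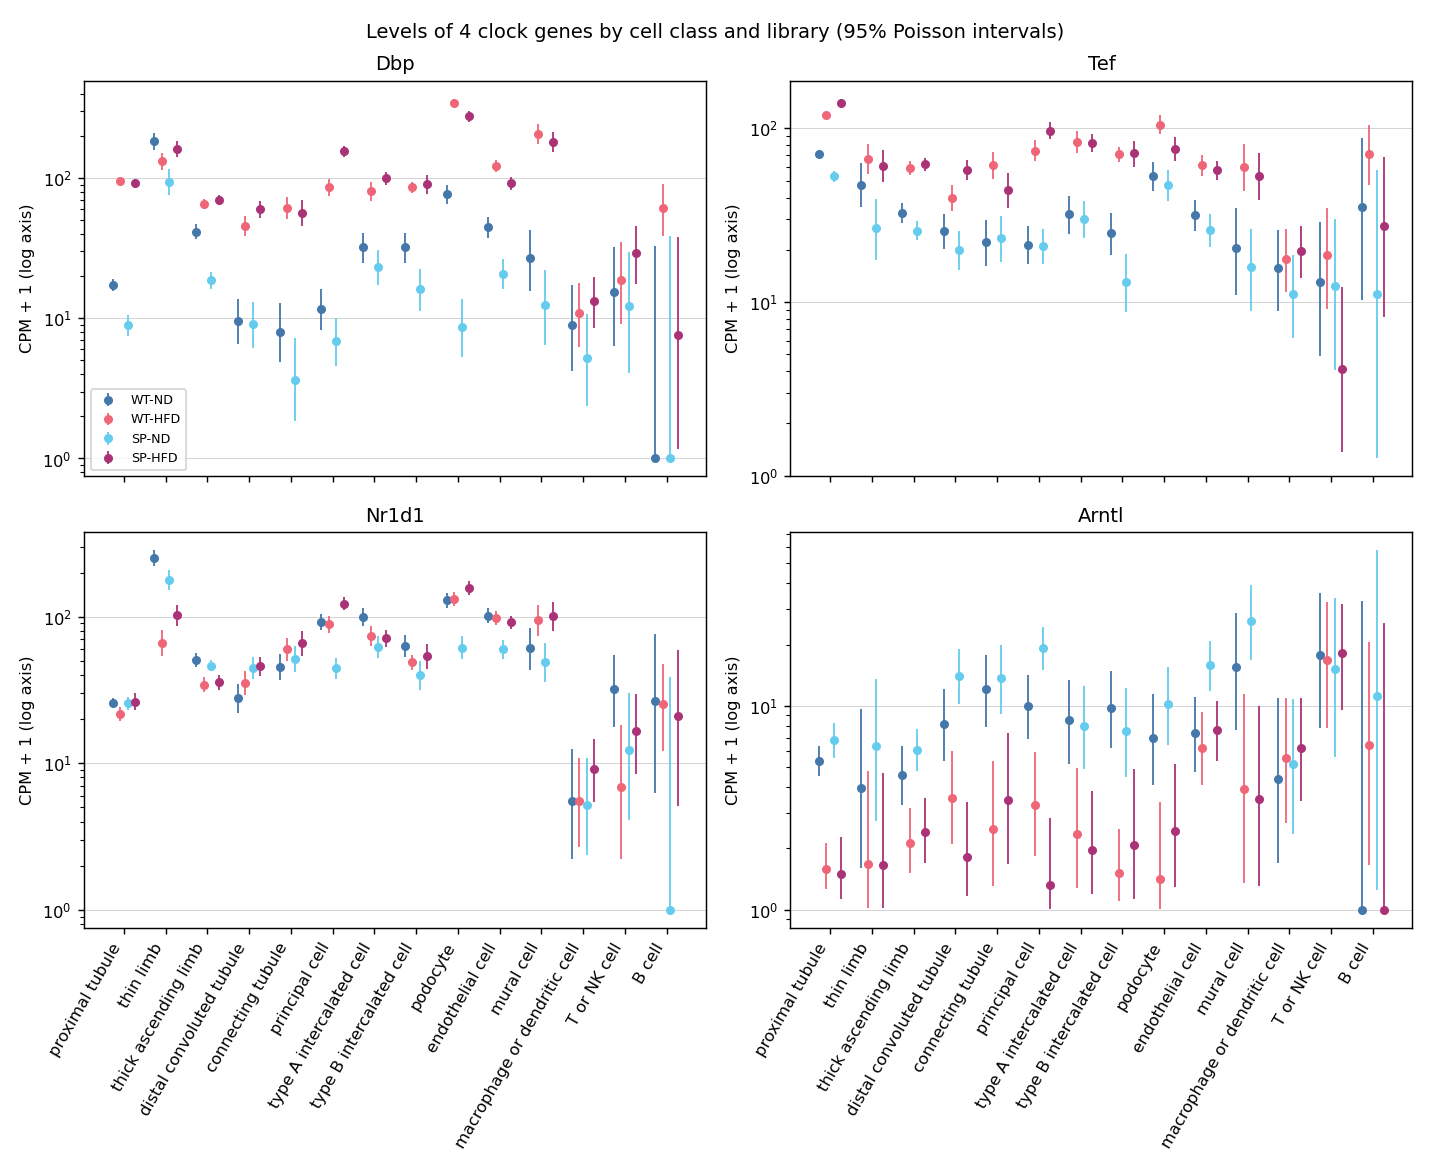
Each panel shows the level of Dbp, Tef, Nr1d1 or Arntl in CPM plus 1 on a log axis, by cell class (horizontal axis) and library (colour), with 95% Poisson intervals as bars. Dbp and Tef are higher in both HFD libraries in nearly all classes and Arntl is lower in most, while the 4 libraries stand close together for Nr1d1 in the proximal tubule (20.7 to 25.3 CPM).

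Of the nuclear receptors that repress Arntl, Nr1d1 did not separate the diets. In the proximal tubule Nr1d1 was at 24.7 CPM in WT-ND and 24.7 in SP-ND, against 20.7 in WT-HFD and 25.3 in SP-HFD. The SP log2 ratio there was 0.04 (-0.22 to 0.30), beside 3.52 (3.22 to 3.84) for Dbp in the same cells. In podocytes Nr1d1 was at 128, 131, 60.5 and 157 CPM in the library order, and in principal cells at 91.0, 87.6, 43.4 and 122 CPM. SP-ND was the low library in both. In concordant principal cells Nr1d1 was at 136.9, 58.6, 31.1 and 91.2 CPM, so that WT-HFD was below WT-ND. WT-HFD was above WT-ND in the larger principal cell cluster, at 77.8, 103, 47.3 and 134 CPM in the library order. The median log2 ratio of Nr1d1 over 11 classes was -0.05 for WT and 0.36 for SP, with an interval above 0 in 1 class and below 0 in 5 for WT, and above 0 in 4 and below in 2 for SP.

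Nr1d2, its paralogue, was higher with HFD by a modest amount. Podocytes had Nr1d2 at 87.3 CPM in WT-ND and 69.2 in SP-ND, against 131 in WT-HFD and 136 in SP-HFD. The widest difference was in principal cells, at 17.6, 53.5, 11.4 and 67.8 CPM, where the SP log2 ratio was 2.57 (2.07 to 3.10). In concordant principal cells Nr1d2 was at 10.9, 27.1, 9.08 and 35.0 CPM, from 7, 25, 7 and 33 UMIs. Both HFD libraries lay above both ND libraries in 11 of 13 classes, and in 10 of 12 in concordant cells. The median log2 ratio was 0.45 for WT and 0.97 for SP.

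**Figure D4:**
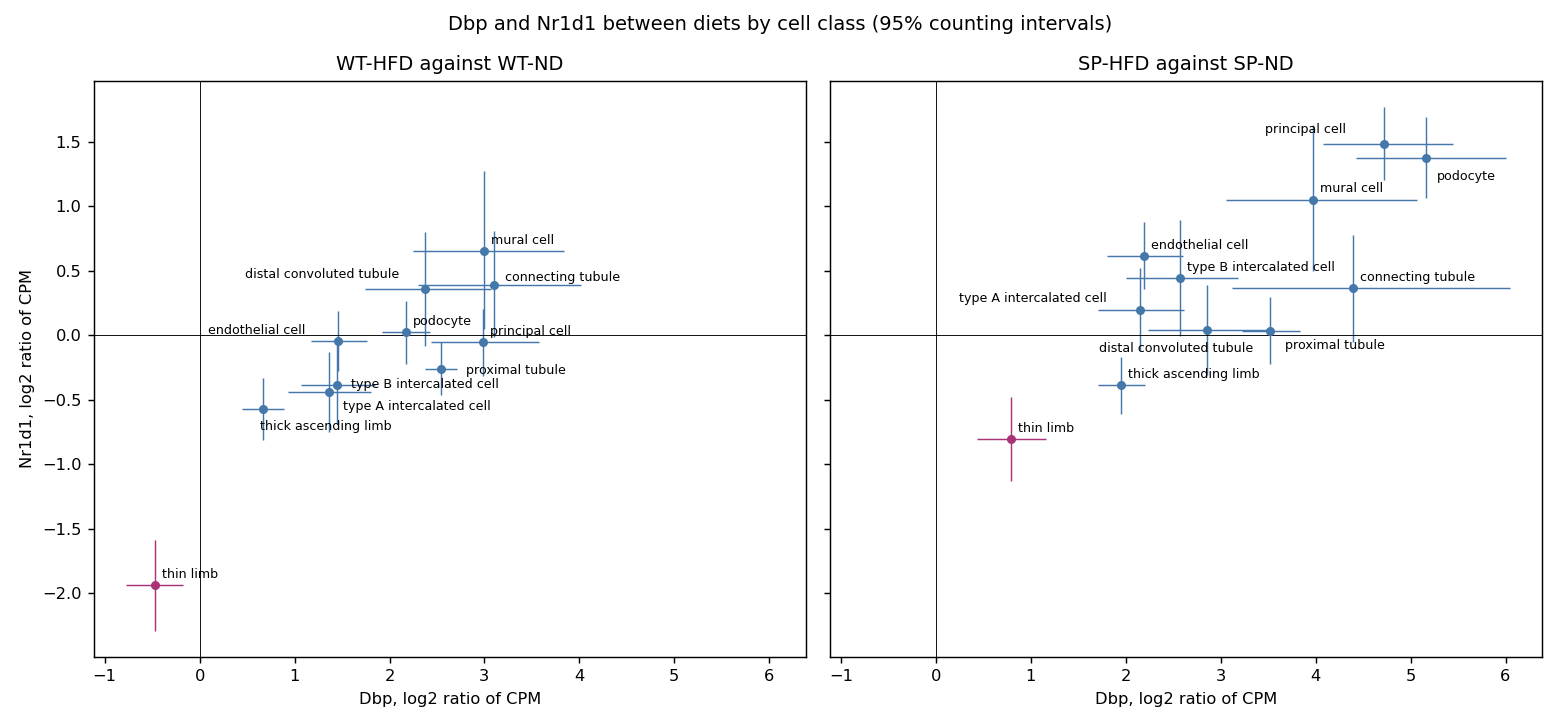
Each point is a cell class, with the log2 ratio of Dbp between diets on the horizontal axis and that of Nr1d1 on the vertical axis, for wild-type (left) and SP mice (right), and bars are 95% counting intervals. Dbp is above 0 in all 11 classes but the thin limb in wild-type mice, Nr1d1 scatters about 0, and the thin limb (purple) has the lowest values of both genes in both panels.

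The repressors of the Per family were higher with HFD. Per2 had few UMIs in ND libraries. It was at 3.13 CPM in WT-ND and 2.14 in SP-ND, against 10.5 in WT-HFD and 12.1 in SP-HFD in the proximal tubule. In principal cells Per2 was at 0.692 (2 UMIs), 29.6, 5.28 and 35.7 CPM, with log2 ratios of 5.42 (3.52 to 8.49) for WT and 2.76 (2.03 to 3.57) for SP. In concordant principal cells it was at 1.56, 24.9, 7.78 and 41.3 CPM, from 1, 23, 6 and 39 UMIs. Both HFD libraries lay above both ND libraries in 8 of 8 classes. Most classes reached 50 UMIs of Per2 through the HFD libraries, which by itself favours that order. Over all kept cells, with no such limit but a mix of classes that differs between libraries, Per2 was at 3.08, 11.2, 2.34 and 12.1 CPM.

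Per3, a further member of the family, was higher in both HFD libraries than in both ND libraries in 9 of 10 classes, and in 8 of 9 in concordant cells. In type A intercalated cells, which secrete acid in the collecting duct, Per3 was at 20.0 CPM in WT-ND and 11.1 in SP-ND, against 47.3 in WT-HFD and 42.6 in SP-HFD. The median log2 ratio was 0.93 for WT and 1.76 for SP. Per1, which also responds to glucocorticoids and to other signals outside the clock, was higher in both HFD libraries in 9 of 13 classes, and in 8 of 12 in concordant cells. Its median log2 ratio was 1.36 for WT and 0.69 for SP. Principal cells had Per1 at 20.4, 80.0, 23.2 and 68.5 CPM in the library order, and the ND and HFD libraries did not overlap. In concordant principal cells Per1 was at 34.2, 82.4, 19.5 and 66.8 CPM. In mural cells Per1 was at 14.5, 47.8, 35.5 and 35.0 CPM in the library order, and SP-ND and SP-HFD were alike.

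Cry1, the partner of PER in repression, was the member with the fewest UMIs over the 4 libraries together, 77, 215, 109 and 175 over all kept cells in the library order. It was placed in the night arm because its RNA peaks late, yet it was higher in both HFD libraries in 4 of 4 classes with at least 50 UMIs over the 4 libraries. In type A intercalated cells Cry1 was at 2.00, 8.18, 1.85 and 8.66 CPM in the library order (4, 18, 4 and 27 UMIs), so that this class passed the limit through the HFD libraries. Classes under the limit did not all share the order, with 4, 0, 3 and 6 UMIs in mural cells and 2, 6, 11 and 4 in podocytes. In the proximal tubule it was below 1 CPM in every library, at 0.379, 0.790, 0.613 and 0.378 CPM, and no diet difference was detectable at that depth. No pair of an HFD and an ND library reached 50 UMIs of Cry1 in any class.

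The thin limb, the thin-walled part of the loop of Henle in the medulla, had lower Dbp in WT-HFD than in WT-ND, unlike the other tubule classes. Dbp was at 182 CPM in WT-ND and 93.1 in SP-ND, against 131 in WT-HFD and 161 in SP-HFD, so that WT-ND was the highest library. The log2 ratio of Dbp was -0.47 (-0.77 to -0.17) for WT and 0.79 (0.43 to 1.16) for SP. Nr1d1 in these cells was at 249.2, 65.2, 177 and 101 CPM in the library order, and both ND libraries lay above both HFD libraries. Lower Nr1d1 in WT-HFD than in WT-ND was not particular to the thin limb. Concordant principal cells had Nr1d1 at 136.9 CPM in WT-ND and 58.6 in WT-HFD, and Dbp at 10.9 and 44.5 CPM. Their arm contrast in WT-HFD was 0.17 (-0.55 to 0.89) above that in WT-ND. Among thin limb cells of the same class in both clusterings, Nr1d1 was at 249.4, 83.1, 180 and 101 CPM and Dbp at 182, 141, 93.8 and 161 CPM. Thin limb Tef was at 46.5, 65.9, 25.7 and 59.9 CPM and Per2 at 8.90, 19.0, 9.63 and 24.0 CPM in the library order. These 2 members were higher in both HFD libraries, as they were elsewhere. Per3 there was at 41.5, 31.9, 31.0 and 45.3 CPM and the libraries overlapped. The class held 122 to 199 cells per library, and the difference between the thin limb and other classes was not tested.

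The thick ascending limb, the salt-absorbing segment that follows, lay between. Dbp was at 40.6, 64.5, 17.8 and 68.7 CPM in the library order, with log2 ratios of 0.67 (0.45 to 0.89) and 1.95 (1.70 to 2.20). Nr1d1 in this class was at 49.5, 33.4, 45.4 and 34.8 CPM, with both ND libraries above both HFD libraries as in the thin limb. Its clusters were not all alike. In the cluster led by Sycn, Nccrp1 and Kcnt1, Dbp was at 35.4, 31.3, 14.4 and 55.8 CPM, and in the cluster led by Eprn, Irx2 and Irx1 at 49.7, 90.8, 25.9 and 84.3 CPM, in the library order. WT-HFD was slightly below WT-ND in the first, from 68 and 57 UMIs, and well above it in the second. In the remaining clusters of this class WT-HFD was also above WT-ND. The cluster led by Sycn, Nccrp1 and Tmem207 had Dbp at 36.3 CPM in WT-ND and 68.3 in WT-HFD. The cluster led by Cldn16, Slc34a2 and Shd had it at 30.9 CPM in WT-ND and 57.6 in WT-HFD. Over 24 clusters with at least 50 cells in each library, both HFD libraries had an arm contrast above both ND libraries in 19, and SP-ND was the lowest in 23.

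Immune cells had few UMIs of the clock genes. Arntl in T or NK cells was at 16.9 CPM in WT-ND and 14.1 in SP-ND, against 15.8 in WT-HFD and 17.2 in SP-HFD, from 5 to 11 UMIs per library. This was the highest Arntl level of any class in both HFD libraries. Their arm contrasts of 1.21, 0.30, 0.18 and 0.51 overlapped in their intervals. Macrophages or dendritic cells had Dbp at 7.92, 9.84, 4.20 and 12.2 CPM in the library order, beside 30.0, 95.3, 14.2 and 95.5 CPM over all kept cells. RNA from lysed cells is captured with every cell class and can add to these levels. After subtraction of 10% of each class's UMIs in the proportions of its library, the median arm differences between diets over all classes kept their direction. That median does not describe the immune classes, and their single values after subtraction are not reported here. How much of the differences in immune cells came from such RNA was not tested.

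Members also differed in where they were highest. Thin limb cells had the highest Nr1d1 and Dbp of any class in both ND libraries, and podocytes had the highest in both HFD libraries. Per1 was highest in podocytes and lowest in the proximal tubule in all 4 libraries, at 56.5 and 2.56 CPM in WT-ND. Nr1d2 was also highest in podocytes in all 4. When the classes were ordered by level for each member and library, intervals of neighbours overlapped in 480 of 520 neighbouring pairs, so that most steps in these orders are within counting error.

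Other genes of the clock followed in part. Of 12 further clock genes, 88 gene and class pairs were measured for WT-HFD against WT-ND, of which 12 were at least 2-fold higher and 3 lower (median log2 ratio 0.19, beside -0.02 over all genes). For SP-HFD against SP-ND 12 of 86 were higher and 2 lower (median 0.14, beside 0.03). These are 13.6% higher and 3.41% lower for WT, beside 2.9% and 2.15% over all genes, and 13.95% and 2.33% for SP, beside 1.39% and 1.31%. Npas2, which can take the place of Clock, was at 5.40 CPM in WT-ND and 5.21 in SP-ND, against 0.461 in WT-HFD and 0.126 in SP-HFD in the proximal tubule, the last from 1 UMI. Ciart, a repressor of CLOCK and BMAL1, was at 0.426, 6.38, 0.919 and 6.55 CPM in the same cells. Bhlhe41, which also represses them, was at 38.2, 106, 7.18 and 73.9 CPM in podocytes, its highest ratio for WT, and at 47.5, 14.9, 19.3 and 22.0 CPM in the thin limb, its lowest, with a median log2 ratio of 0.19 over 5 classes. Hlf, the relative of Dbp and Tef, was at 82.5, 113, 76.2 and 128 CPM in the proximal tubule. Npas2 and Arntl were thus low, and Ciart and Dbp high, in the same libraries in the proximal tubule. Npas2 and Ciart passed the limit on UMIs in only 1 class in each diet comparison. Npas2 passed it through the ND libraries and Ciart through the HFD libraries, which by itself favours these directions. Both also had the largest median ratios of their list, a ground on which genes were named. They therefore lend the members no separate support.

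Genes listed as outputs of the clock went in both directions. Of 10 such genes, 11 of 88 pairs were at least 2-fold higher and 6 lower for WT-HFD against WT-ND, and 3 of 84 were higher and 3 lower for SP-HFD against SP-ND. These are 12.5% higher and 6.82% lower for WT, beside 2.9% and 2.15% over all genes, and 3.57% each for SP, beside 1.39% and 1.31%. Median log2 ratios were 0.08 and 0.06. Tspan4 had a median log2 ratio of 0.87 for WT and 0.83 for SP, and Usp2 of 0.67 and 0.31. Fmo2 was at -0.68 and -0.77, and Avpr2, the vasopressin receptor of the collecting duct, at -0.09 and -0.97.

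Glucocorticoids and cell dissociation also act on several of these genes, and lists for both were set beside the results. Of 8 glucocorticoid targets, 13 of 82 pairs were higher and 10 lower for WT-HFD against WT-ND, and 7 of 83 were higher and 7 lower for SP-HFD against SP-ND. Both directions were above the shares over all genes, at 15.9% and 12.2% for WT and 8.43% each for SP. Tsc22d3 had a median log2 ratio of 1.05 for WT and 0.42 for SP, and Mt2 of -1.06 and -0.84. Their summed level over classes ran from 335 to 3579 CPM in WT-ND and 344 to 3261 in SP-ND, against 466 to 2148 in WT-HFD and 396 to 2661 in SP-HFD. Of 11 genes known to respond to dissociation, 17 of 153 pairs were higher and 17 lower for WT, and 5 of 153 higher and 21 lower for SP. These are 11.1% in each direction for WT, beside 2.9% higher and 2.15% lower over all genes, and 3.27% and 13.7% for SP, beside 1.39% and 1.31%. Dusp1 had median log2 ratios of 0.75 and 0.16 and Egr1 of -0.47 and -0.74. The summed level of this list ran from 163 to 16074 CPM over classes in WT-ND and 234 to 14660 in SP-ND, against 233 to 19952 in WT-HFD and 220 to 13360 in SP-HFD. The part of either list in the clock genes' levels was not tested.

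The 5 genes whose pattern was most like the mean of the day arm minus that of the night arm were ranked among 4222 genes with a mean of at least 10 CPM in every class. Pearson's r was taken across 56 points, 14 classes in each of 4 libraries, which share libraries and depth. They were Igha (r = 0.86), Tef (0.83), Jchain (0.83), Nr1d2 (0.82) and Igkc (0.82), of which Tef and Nr1d2 are part of the pattern. Igha, Jchain and Igkc encode antibody chains that plasma cells make, and were higher in WT-HFD than in WT-ND and in SP-HFD than in SP-ND in all 14 classes. Kept plasma cells numbered 35 in WT-ND and 1 in SP-ND, against 76 in WT-HFD and 118 in SP-HFD. Among the most opposite genes were Fabp1 (-0.79), a fatty acid-binding protein of the proximal tubule, Clint1 (-0.72) and Hnrnpa0 (-0.70). With 4 libraries, any gene that differs in the same direction between the ND and HFD libraries ranks high by this measure.

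Positions in GENCODE vM21 (GRCm38) bear on how surely a read belongs to its gene. Nr1d1 (chr11:98767932-98775333, minus strand) shares 1075 bases at its 3′ end with Thra on the other strand, and Dbp (chr7:45705088-45710203, plus strand) shares 737 with Sphk2 on the other strand. Per3 (chr4:151003652-151044665) lies wholly within Camta1 on the same strand. Arntl, Clock and Tef overlap non-coding genes or pseudogenes, and Per1, Per2, Cry1 and Nr1d2 overlap no other gene. The strand setting of the counting is not given in the sources used here, so reads of Nr1d1 and Thra, or of Dbp and Sphk2, cannot be fully told apart. Strand alone cannot separate reads of Per3 from those of Camta1 under any setting.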

How the data were processed

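Kidneys were digested and single cells captured with a droplet-based 3′ kit. The authors made UMI counts per gene and barcode with Cell Ranger and deposited them without normalization (version 6.1.2 per the file headers, 2.1.1 and the build mm10 in the submitters' processing notes). No barcode holds fewer than 500 UMIs. The 4 libraries hold 90728590 to 115117649 UMIs over 13229 to 16385 barcodes, and 32.7% to 49.8% of barcodes had at least 50% mitochondrial UMIs.

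Cells with 200 to 5000 genes and under 50% mitochondrial UMIs were kept, and doublets, scored against simulated doublets, were removed at 0.8% per 1000 cells. Cells were integrated (CCA, 2000 features, 50 dimensions) and clustered at a resolution of 0.5 with Seurat 5.3.0, SeuratObject 5.2.0, Matrix 1.6.5 and R 4.3.3. A cluster took the class with the highest mean log2 marker ratio if that was at least 1, with at least 3 markers detected and no other class with more markers among its top 10 genes. The thresholds and 2 exceptions (a globin-rich cluster and one with Pdgfrb among its leading genes stayed unnamed) were set after clusters had been seen. Levels, intervals and plots were made in Python (3.11.15) with scipy 1.17.1, numpy 2.4.6, matplotlib 3.10.9 and pandas 2.3.3.

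CPM have exact Poisson intervals, ratios exact conditional binomial intervals and arm differences Wald intervals. No test was made, because each condition has 1 library. The intervals and ratios were tested on simulated Poisson counts, the model that the intervals assume. Spread between cells or mice was not simulated, so that test covers counting error only. Libraries whose titles name a genotype and no diet were taken as the ND libraries.

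The members and all gene lists were chosen with earlier results of these data known. Named genes are the 10 members, up to 4 per list with the most UMIs or the largest median ratio, the 5 most and 5 least alike in pattern, and Slc5a2, of which some are not reported here. Alternatives were other clustering, cell limits, arm definitions, scalings and UMI minimums, and cells of 1 class in both clusterings, which was chosen after seeing the data.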

Additional observations from a re-analysis of the deposited data

Results flagged for a closer look

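The log2 ratio of Dbp in the thin limb for WT-HFD against WT-ND was -0.47 (-0.77 to -0.17), opposite in direction to the median over classes of 2.17. It stood out because the diet difference had the other sign in this class. Thin limb Dbp was at 182 CPM in WT-ND and 131 CPM in WT-HFD. Among cells that took the same class in both clusterings it was at 182 and 141 CPM. In the mutant mice thin limb Dbp was at 93.1 CPM in SP-ND and 161 CPM in SP-HFD, in the direction of the other classes. The difference between classes was not tested, since each condition has 1 library.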

How the results depend on the processing

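Of 273 values recomputed for the arm contrast, the order of the libraries and the pairs past 2-fold, 214 stayed within their counting interval or within 1.5 times, 56 moved further and 3 changed sign. Those 3 were the median of SP-HFD minus WT-HFD, -0.21 in the report, which was 0.23 without integration, 0.12 as a mean of log2(CPM + 1) over genes and 0.064 for Dbp over Arntl alone. It was -0.066 at a resolution of 1.0, -0.10 without Dbp, -0.076 with Per1 and Per2 added, and -0.0036 in cells of 1 class in both clusterings, a setting chosen after seeing the data. The cause was not tested. The medians between diets and between the ND libraries kept their direction in all settings run.

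For WT-HFD minus WT-ND the median was 0.84 without integration, 0.89 in cells of 1 class in both clusterings, 1.04 without Dbp, 1.06 without Clock, 1.36 under 30% mitochondrial UMIs or with more doublets removed, 1.37 with Per1 and Per2, 1.39 with at least 1000 UMIs per cell, 1.46 with at least 200 cells and 3.84 for Dbp over Arntl. For SP-HFD minus SP-ND it was 1.47 without Dbp, 2.08 without integration, 2.26 as a mean of logs, 2.30 without Clock and 5.08 for Dbp over Arntl. For SP-ND minus WT-ND it was -0.63 with at least 200 cells, -0.68 with Per1 and Per2 and -1.54 for Dbp over Arntl. WT-HFD was highest in 5 classes without integration. SP-HFD was highest in 3 with more doublets removed, and WT-ND in 2 without Dbp or without Clock. The lowest library was WT-ND in 1 class under 30% mitochondrial UMIs, WT-HFD in 1 after subtraction of library-wide RNA, and SP-HFD in 1 for Dbp over Arntl, without Dbp and without Clock. With at least 200 cells 8 classes were left, SP-ND was lowest in all 8, and WT-HFD was highest in 5, SP-HFD in 3 and WT-ND in 0.

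Counts of pairs past 2-fold depend on the number of pairs measured. That number and the share over all genes are not reported here for most settings below. The counts therefore cannot be read as shares or set against all genes. With at least 200 cells, 20 were higher and 2 lower for WT-HFD against WT-ND, and 27 were higher for SP-HFD against SP-ND. With at least 20 UMIs, 9 and 8 were lower in these comparisons, 6 were higher for SP-ND against WT-ND and 3 lower for SP-HFD against WT-HFD. With at least 200 UMIs, 15 were higher and 2 lower for WT and 21 higher and 0 lower for SP, and 1 was higher and 4 lower for SP-ND against WT-ND. Under 30% mitochondrial UMIs, 1 was lower for WT and 2 for SP. As a mean over cells, 2 were lower for SP, 1 was higher for SP-ND against WT-ND, and 4 were higher and 1 lower for SP-HFD against WT-HFD. At a resolution of 1.0, 4 were higher for SP-HFD against WT-HFD. In cells of 1 class in both clusterings, 21 were higher for WT. No scaling moved the median of all genes by more than 0.1. Of 11 member medians past 2-fold, none changed sign in 98 values under 9 alternatives. No paired analysis was possible because each condition has 1 library, and for the same reason none could leave a library out. Members with few UMIs, Cry1 and Arntl above all, and the immune classes limit what could be seen.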
